A study of Rattus norvegicus with 23 samples.

Results

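Glucocorticoids act on the hippocampus through a pair of receptors, and 7 genes of that pathway were followed on 23 arrays of rat dorsal hippocampus: the receptors Nr3c1 and Nr3c2, the enzyme Hsd11b1 and the glucocorticoid targets Sgk1, Tsc22d3, Per1 and Zbtb16. Members were the probe sets (the array's units of measurement, 1 value per array) whose only gene symbol in the array annotation is one of these names. Each gene had 1 such probe set, so the genes account for 7 of 29211 probe sets on the array, of which 15307 carry 1 symbol. All 7 were among the 13339 probe sets that were tested, namely those that name 1 gene and reach a signal of 40 on 4 or more arrays. None of them had a blank value. None of them passed the test between groups in any of 7 comparisons, whereas Sgk1 and Per1 varied together from rat to rat within the groups.

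The arrays come from male F344 rats that had been trained in the Morris water maze, with the RNA of 1 dorsal hippocampus on each array. Rats of the LT group (n = 6) were 21 months old and carried a long-term transgene for rat FKBP1b, a small protein that binds ryanodine receptor calcium channels, and rats of the ST group (n = 6) were also 21 months old and carried it for a shorter time. The transgene was delivered by an adeno-associated virus (AAV2/9) injected on both sides into CA1, 2 µl per side at 1.99e12 GC/mL, where a CaMKII promoter drives it in excitatory neurons. AC rats (n = 5), again 21 months old, received the same kind of virus with eGFP at 1.86e13 GC/mL, and YC rats (n = 6) were 5 to 6 months old. The sources differ on the age at injection: the sample labels give 12 months for LT, 18 for ST and 18 for AC, and the study's design gives 13, 19 and 13. YC rats were sham treated by the sample labels and had no injection by the design, so age cannot be told apart from surgery and virus in the comparison of AC with YC, nor transgene from titer in those of ST or LT with AC. By the design ST, and by the labels LT, also differed from AC in age at injection. Time since injection can then not be told apart from transgene in that comparison either. By the study's methods, the ST and LT arrays were chosen from rats with FKBP1b above their group median. Each value is a signal (linear scale) made by the study with the Robust Multiarray Average method.

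The glucocorticoid receptor (NR3C1) and the mineralocorticoid receptor (NR3C2) are transcription factors that wait in the cytoplasm with heat shock proteins, bind corticosterone in the rat and move to the nucleus, where they bind short palindromic elements in DNA. The mineralocorticoid receptor has the higher affinity for corticosterone and is abundant in the hippocampus, and the glucocorticoid receptor is filled mainly at the daily peak of the hormone and under stress. Hsd11b1 encodes the enzyme that regenerates active corticosterone from its inert 11-keto form inside cells. Sgk1 encodes a serine/threonine kinase that regulates ion channels and transporters, Tsc22d3 encodes the leucine zipper protein GILZ, Per1 encodes a repressor of the circadian clock, and Zbtb16 encodes the zinc finger repressor PLZF. All of these 4 genes are induced by glucocorticoids in many tissues.

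Fkbp1b signal (probe set 10940524) was 843 to 1217 in LT, 427 to 881 in ST, 364 to 458 in AC and 353 to 411 in YC. The array annotation assigns this probe set to Fkbp1b, whereas the study states that the array lacks one for the gene and measured it by qRT-PCR. The summed signal of 10 neuronal markers was 44964 to 47309 in LT, 46617 to 48645 in ST, 45141 to 48368 in AC and 47620 to 48585 in YC. Choroid plexus genes stood apart on 4 arrays (LT replicates 2 and 5, AC replicates 3 and 4), where the score of 13 such genes was 2.50 to 3.03 log2 units, above a cut of 1. Their summed signal was 2259 to 23933 in LT, 885 to 1352 in ST, 1135 to 29982 in AC and 1357 to 2067 in YC. Every LT array was thus above every ST and YC array, and leaving out the 4 arrays does not remove this difference. One array, AC replicate 5, was low in CA1 and dentate genes: Wfs1, a CA1 marker, had a signal of 580 there and 2444 to 2996 on the other 22 arrays. Values without these arrays stand beside the results they were found to move. RNA integrity numbers were 8.9 to 9.5 in LT, 9.4 to 9.7 in ST, 8.9 to 9.8 in AC and 9.4 to 9.5 in YC. In bulk tissue, fewer cells of a type and less RNA per cell cannot be told apart.

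Promoter windows of Sgk1 and Per1 are shown because the signals of these genes varied together within groups, and that of Tsc22d3 as another glucocorticoid target, which was called with neither. They are RefSeq sequences of build GRCr8, 250 bases before to 50 after a transcript start, read 5′ to 3′ on the gene's strand, and capitals mark TATAAA, the TATA box core. Sgk1 is at chr1:24804782-24805081, Per1 at chr10:54304126-54304425 and Tsc22d3 at chrX:109009985-109010284, on the minus, plus and minus strand.
Sgk1: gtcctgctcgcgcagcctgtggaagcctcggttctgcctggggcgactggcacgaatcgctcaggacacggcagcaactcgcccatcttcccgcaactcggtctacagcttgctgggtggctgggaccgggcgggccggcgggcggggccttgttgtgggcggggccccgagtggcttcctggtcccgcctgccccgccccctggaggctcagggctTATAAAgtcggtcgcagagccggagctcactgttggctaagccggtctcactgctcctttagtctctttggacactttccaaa
Per1: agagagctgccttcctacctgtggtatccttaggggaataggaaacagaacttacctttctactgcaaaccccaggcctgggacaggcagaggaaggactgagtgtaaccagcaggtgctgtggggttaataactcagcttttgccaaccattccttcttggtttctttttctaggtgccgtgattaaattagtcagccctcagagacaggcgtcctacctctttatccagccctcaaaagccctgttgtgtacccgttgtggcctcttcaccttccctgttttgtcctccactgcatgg
Tsc22d3: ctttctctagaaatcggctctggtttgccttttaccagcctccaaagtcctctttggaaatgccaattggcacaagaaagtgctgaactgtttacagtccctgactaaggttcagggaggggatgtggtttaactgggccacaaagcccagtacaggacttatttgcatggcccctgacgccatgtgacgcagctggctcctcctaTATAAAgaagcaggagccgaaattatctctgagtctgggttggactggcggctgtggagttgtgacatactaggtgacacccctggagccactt

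The RefSeq table has 9 windows for these genes: 3 each for Sgk1 and Tsc22d3, 2 for Nr3c1 and 1 for Per1. TATAAA stood in 3 of the 9, on the gene's strand, against 8.80% of all 33469 windows. In the windows shown it began 33 bases before the start of Sgk1 and 44 before that of Tsc22d3. The core of the glucocorticoid response element (GNACA, 3 bases of any kind, TGTNC), searched on both strands, was in 0 of the 9 windows and in 0.439% of all windows. Its full palindrome (AGAACA, 3 bases of any kind, TGTTCT) was in 0.0149% of all windows, its left arm AGAACA in 20.7%, the E-box CACGTG of clock factors in 6.42% and the cyclic AMP element TGACGTCA in 1.83%, and each of these was also in 0 of the 9. The arm is part of the palindrome, and it, TGACGTCA and TATAAA were added to the search later. These letters are therefore not in these windows, which says nothing about sites elsewhere at the genes.

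Nr3c1, the glucocorticoid receptor (probe set 10804132), had a nearly constant signal in 3 of the groups. Signal was 969 to 1037 in LT (median 1001.5), 1008 to 1078 in ST (median 1044), 1084, 1036, 917, 993 and 708 on the AC arrays and 956 to 1062 in YC (median 978). The AC group thus held both the highest and the lowest of the 23 values, and it overlapped every other group. Means were 1002 ± 29.0 in LT, 1042 ± 24.6 in ST, 948 ± 147 in AC and 988 ± 37.7 in YC (SD, n = 6, 6, 5 and 6), so that the order by mean was ST, LT, YC, AC and neighbors in this order overlapped.

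Nr3c2, the mineralocorticoid receptor (probe set 10810539), had signals of 1689 to 2018 in LT (median 1826.5), 1725 to 2060 in ST (median 1945), 2167, 1882, 1769, 1794 and 1456 on the AC arrays and 1791 to 2223 in YC (median 1933.5). The lowest value, 1456, came from the same AC array as the lowest Nr3c1 value. Group means were 1853 ± 125 in LT, 1930 ± 112 in ST, 1814 ± 255 in AC and 1956 ± 152 in YC (SD), the order being YC, ST, LT, AC, and all groups overlapped.

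Hsd11b1, the activating enzyme (probe set 10770795), varied little in ST, AC and YC. Its signal was 523 to 668 in LT (median 585), 596 to 649 in ST (median 621.5), 599, 622, 616, 614 and 684 on the AC arrays and 577 to 669 in YC (median 631). The mean was 592 ± 56.4 in LT, 624 ± 21.5 in ST, 627 ± 33 in AC and 633 ± 33.6 in YC (SD), and the groups overlapped.

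Among the targets, Sgk1 (probe set 10717331), the kinase gene, covered a wide range in every group. Its signal was 1734 to 3186 in LT (median 2065.5), 1314 to 3091 in ST (median 2258.5), 2006, 2626, 2813, 2261 and 2094 on the AC arrays and 1246 to 3103 in YC (median 2075.5). The highest array exceeded the lowest of the same group 1.84-fold in LT, 2.35-fold in ST, 1.40-fold in AC and 2.49-fold in YC. Means of 2333 ± 659 in LT, 2250 ± 625 in ST, 2360 ± 347 in AC and 2157 ± 689 in YC (SD) differed by less than any of these SDs. RefSeq also lists a pseudogene, Sgk1-ps1, and whether its sequence reaches the probes was not examined.

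Tsc22d3 (probe set 10939516), which encodes GILZ, had signals of 269 to 372 in LT (median 297), 249 to 360 in ST (median 317), 277, 343, 374, 277 and 361 on the AC arrays and 294 to 362 in YC (median 333.5). Its means were 312 ± 40.3 in LT, 309 ± 37.7 in ST, 326 ± 46.4 in AC and 331 ± 21.7 in YC (SD). The groups overlapped fully.

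Per1 (probe set 10734882), the clock repressor, had the highest mean in YC. Signals were 521 to 665 in LT (median 551.5), 487 to 645 in ST (median 563.5), 554, 637, 595, 477 and 480 on the AC arrays and 543 to 785 in YC (median 593.5). Mean signal was 580 ± 59.3 in LT, 554 ± 58.4 in ST, 549 ± 70.4 in AC and 628 ± 91.4 in YC (SD). The 2 lowest values were AC arrays and the 2 highest were YC arrays, while the remaining arrays of both groups overlapped.

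Zbtb16 (probe set 10917116), encoding PLZF, had 1 array far above the others. Its signal was 441 to 665 in LT (median 512), 430 to 614 in ST (median 538.5), 584, 473, 894, 465 and 550 on the AC arrays and 429 to 593 in YC (median 572.5). The value of 894 belonged to AC replicate 3, 1 of the 4 choroid plexus-high arrays, while the other 3 of those arrays had Zbtb16 signals of 441 to 465. Means were 526 ± 85.7 in LT, 529 ± 62.1 in ST, 593 ± 176 in AC and 546 ± 62.1 in YC (SD).

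**Figure D1:**
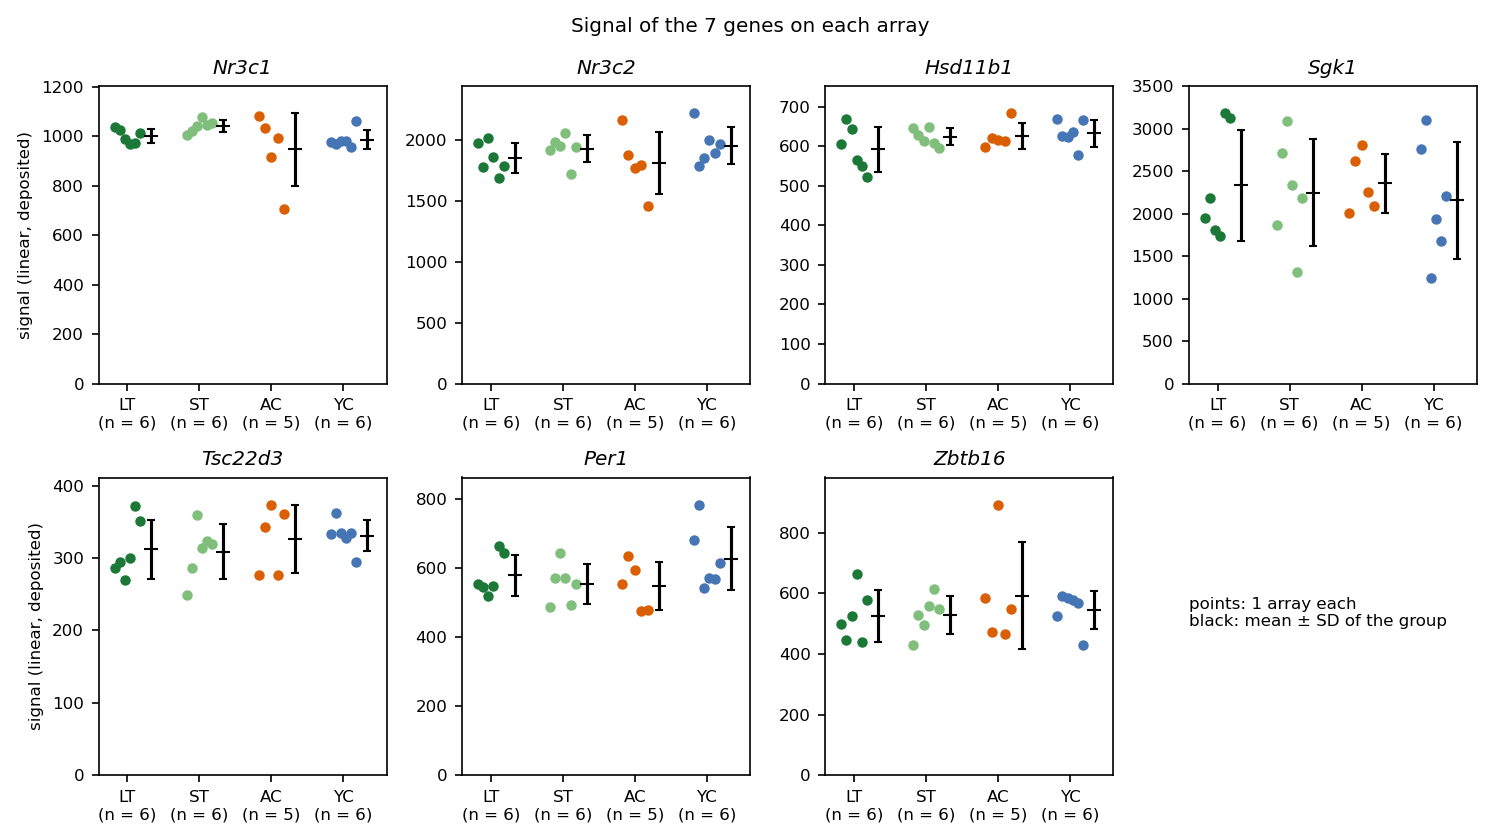
Signal (linear scale) of the 7 genes on each of the 23 arrays, with LT, ST, AC and YC from left to right, 1 point per array, and the group mean with its SD in black. Groups overlap in every panel, Sgk1 spreads widely in every group, and 1 AC array is low for both Nr3c1 and Nr3c2.

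Differences between groups were then tested with limma on the log2 signal, with p values adjusted over the 13339 probe sets. The comparison of LT with AC, which asks what long-term FKBP1b does in aged rats, called 0 of the 7 genes at an adjusted p under 0.05, beside 0.075% of all probe sets. Log2 differences ran from -0.15 (Zbtb16, standard error 0.14, 95% interval -0.44 to 0.15) to 0.095 (Nr3c1, standard error 0.069, interval -0.048 to 0.24), with adjusted p of 0.51 or more for each. In the comparison of ST with AC, which addresses shorter treatment, limma called 0 of 7 beside 0% of all probe sets. The gene nearest to a call was Nr3c1, higher in ST by 0.15 log2 units (standard error 0.069, interval 0.0092 to 0.30, adjusted p = 0.48). It was the only gene of the set with an unadjusted limma p under 0.05 in any comparison. It was also the only one by one-way analysis of variance with least significant differences, which called 0 of 7 as well. The study makes such contrasts only after a significant analysis of variance, and that of Nr3c1 had an unadjusted p of 0.23. Over all probe sets, 9.82% had an unadjusted limma p under 0.05 in the comparison of ST with AC.

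In the comparison of AC with YC, where age cannot be told apart from surgery and virus, limma called 0 of the 7 genes beside 9.75% of all probe sets. Per1 came closest, with a log2 difference of -0.19 (standard error 0.098, interval -0.40 to 0.012, adjusted p = 0.21). The interval for Sgk1 was the widest, -0.29 to 0.65 around a difference of 0.18 (standard error 0.23), so that these arrays could have missed an Sgk1 difference of over 1.5-fold. For Hsd11b1 the interval was -0.13 to 0.10 around -0.013. For Nr3c1 and Nr3c2 the differences were -0.074 (interval -0.22 to 0.069) and -0.12 (interval -0.27 to 0.038). Tsc22d3 differed by -0.029 (interval -0.23 to 0.17) and Zbtb16 by 0.085 (interval -0.21 to 0.38).

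Other comparisons gave the same count. By limma, 0 of 7 genes were called for the mean of LT and ST against AC (0.03% of all probe sets), for LT against ST (0.0075%), for ST against YC (4.15%) and for LT against YC (1.03%), and neither limma nor the analysis of variance gave any of the 7 an unadjusted p under 0.05 there. The F test across the groups called 0 of 7 beside 5.46% of all probe sets, with the smallest unadjusted p at 0.21 for both Nr3c1 and Per1. The study's rule for expression patterns first asks for an unadjusted F-test p no higher than 0.05. All 7 failed this first step and so fell outside every pattern, and 75.8% of the tested probe sets failed it too. A further 5.57% of probe sets passed it but had no AC against YC difference under the rule, and were also in no pattern. Comparisons that share the AC or the YC arrays are not independent of each other.

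**Figure D2:**
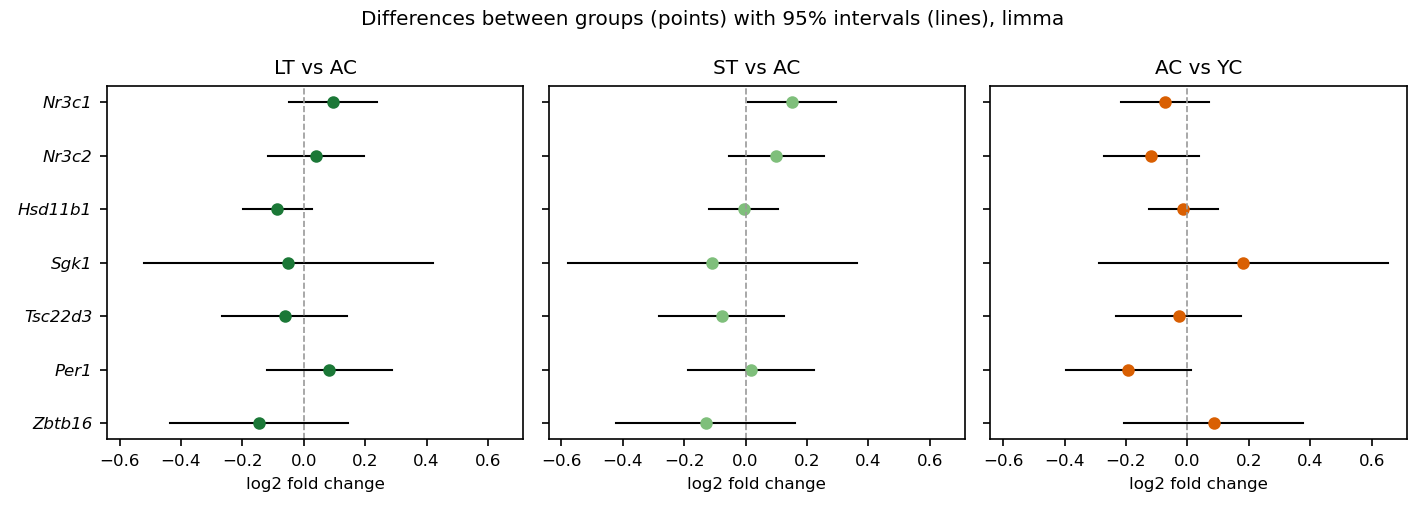
Log2 fold changes of the 7 genes (points) with 95% intervals (lines) for LT vs AC, ST vs AC and AC vs YC, from limma. Every interval holds 0 except that of Nr3c1 for ST vs AC, which runs from 0.0092 to 0.30, and the Sgk1 intervals are the widest.

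Single arrays weighed on the receptor and Zbtb16 differences. Without AC replicate 5, the Nr3c1 difference became -0.0064 for LT against AC, 0.051 for ST against AC and 0.027 for AC against YC, and the Nr3c2 difference became -0.037, 0.023 and -0.041. Without AC replicate 3, the Zbtb16 difference became 0.013 for LT against AC, 0.029 for ST against AC and -0.074 for AC against YC. When the 4 choroid plexus-high arrays were all left out, Zbtb16 differed by 0.079, -0.020 and -0.024 log2 units in these comparisons. None of these values was called.

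Spread within groups set the genes apart from one another more than the groups did. The pooled within-group SD of log2 signal was 0.40 for Sgk1, at percentile 99.1 of the tested probe sets, and only 115 probe sets varied more. It was 0.25 for Zbtb16 (percentile 96.4), 0.17 for Per1 (87.5), 0.17 for Tsc22d3 (87.4), 0.13 for Nr3c2 (71.9), 0.12 for Nr3c1 (66.4) and 0.091 for Hsd11b1 (48.5), and the median over all tested probe sets was 0.093. All 4 targets therefore varied more from rat to rat than most genes on the array. The SD of Nr3c1 rested on AC replicate 5: without that array it was 0.058 (percentile 23.0, with a median of 0.086 over all tested probe sets), the smallest of the 7, while those of Nr3c2 and Hsd11b1 were 0.10 and 0.088. By group, the SD of Nr3c1 was 0.042 in LT, 0.034 in ST, 0.24 in AC (0.10 without replicate 5) and 0.054 in YC. Without AC replicate 3, the SD of Zbtb16 was 0.19 (percentile 91.3).

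This variation was shared between Sgk1 and Per1. After each array was expressed as its deviation from its group mean, the Sgk1 and Per1 log2 signals correlated at Pearson's r = 0.85 (Spearman's rho = 0.84, 23 arrays), and r was 0.95 in LT, 0.89 in ST, 0.67 in AC and 0.92 in YC. It was 0.86 without the 2 arrays farthest from their group mean in Sgk1. Rats that were high for one gene were thus high for the other in each group: LT replicates 5 and 6 had the highest Sgk1 signals of LT (3186 and 3133) and its highest Per1 signals (665 and 644), ST replicate 3 had the highest of ST (3091 and 645), and YC replicate 2 the highest of YC (3103 and 785). AC was the exception, with Sgk1 highest in replicate 3 (2813) and Per1 highest in replicate 2 (637). Deviations of Tsc22d3 correlated at r = 0.57 with those of Per1 and 0.45 with those of Sgk1. For Tsc22d3 with Per1, r was 0.99 in LT, 0.66 in ST, 0.35 in AC and 0.46 in YC. These correlations are descriptions, since all signals of an array share 1 dissection, 1 RNA sample and 1 scaling.

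To test this across the array, log2 Sgk1 signal was added to the limma model as a covariate beside the group means, and every other tested probe set was fitted on it. This test and its thresholds were chosen after the correlations had been seen. A slope of 1 means that the other gene's log2 signal differed by as much as that of Sgk1 between rats of a group. Of 13338 probe sets, 10 followed Sgk1 (0.075%), all with positive slopes. Per1 was among them, with a slope of 0.36 (standard error 0.052, adjusted p = 0.0013), and none of the other 5 genes was.

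The remaining 9 that followed Sgk1 include 6 of the 27 tested genes of a list of other glucocorticoid-induced genes (30 listed). These are Pdk4, which encodes an inhibitory kinase of pyruvate dehydrogenase, with a slope of 1.22 (standard error 0.13, adjusted p = 2.7e-05). Ddit4, an inhibitor of mTOR signaling, had a slope of 0.64 (standard error 0.079, adjusted p = 0.00028). Plekhf1, an endosomal protein gene, had 0.52 (standard error 0.070, adjusted p = 0.00067), and Nfkbia, the inhibitor of NF-κB, had 0.60 (standard error 0.085, adjusted p = 0.0013). Errfi1, a brake on EGF receptor signaling, had 0.37 (adjusted p = 0.0070) and Dusp1, a MAP kinase phosphatase gene, had 0.58 (adjusted p = 0.039). Off that list were Arrdc3, an arrestin-domain adaptor gene, with 0.44 (standard error 0.043, adjusted p = 1.96e-05), Lrig3, a transmembrane protein gene, with 0.32 (adjusted p = 0.00030), and Zfp189, a zinc finger gene, with 0.41 (adjusted p = 0.045). The list was chosen with earlier results of these data known. Counts of its genes, here and in the later fits, are therefore not independent support for a shared response to glucocorticoids.

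Pdk4 shows the size of this variation. Its signal was 157 to 367 in LT, 150 to 460 in ST, 185, 346, 370, 199 and 241 on the AC arrays and 140 to 436 in YC. The lowest Pdk4 signals of LT, ST and YC came from replicates 4, 5 and 3, which also had the lowest Sgk1 signals of these groups (1734, 1314 and 1246). In AC, replicate 1 was lowest for both (185 for Pdk4 and 2006 for Sgk1). Between-group differences of the same gene were not called in any comparison.

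The calls differed in how far they rested on single arrays. Pdk4, Arrdc3 and Lrig3 followed Sgk1 under all 31 alternative settings, and Per1 under 30, with adjusted p of 0.00064 to 0.011 when single arrays were left out. Ddit4, Plekhf1 and Nfkbia were lost in 1 setting each, when YC replicate 3 and ST replicate 5, the arrays farthest from their group mean in Sgk1, were both left out (slopes of 0.57, 0.42 and 0.59, adjusted p = 0.066, 0.24 and 0.14). Dusp1 was lost in 12 and Zfp189 in 18 of the 23 fits that left out 1 array. Leaving out the 4 choroid plexus-high arrays left 7 probe sets that followed Sgk1, with Errfi1, Dusp1 and Zfp189 no longer called at slopes of 0.35, 0.57 and 0.45 (adjusted p = 0.12, 0.17 and 0.092) and Per1 at a slope of 0.36 (adjusted p = 0.0085).

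**Figure D3:**
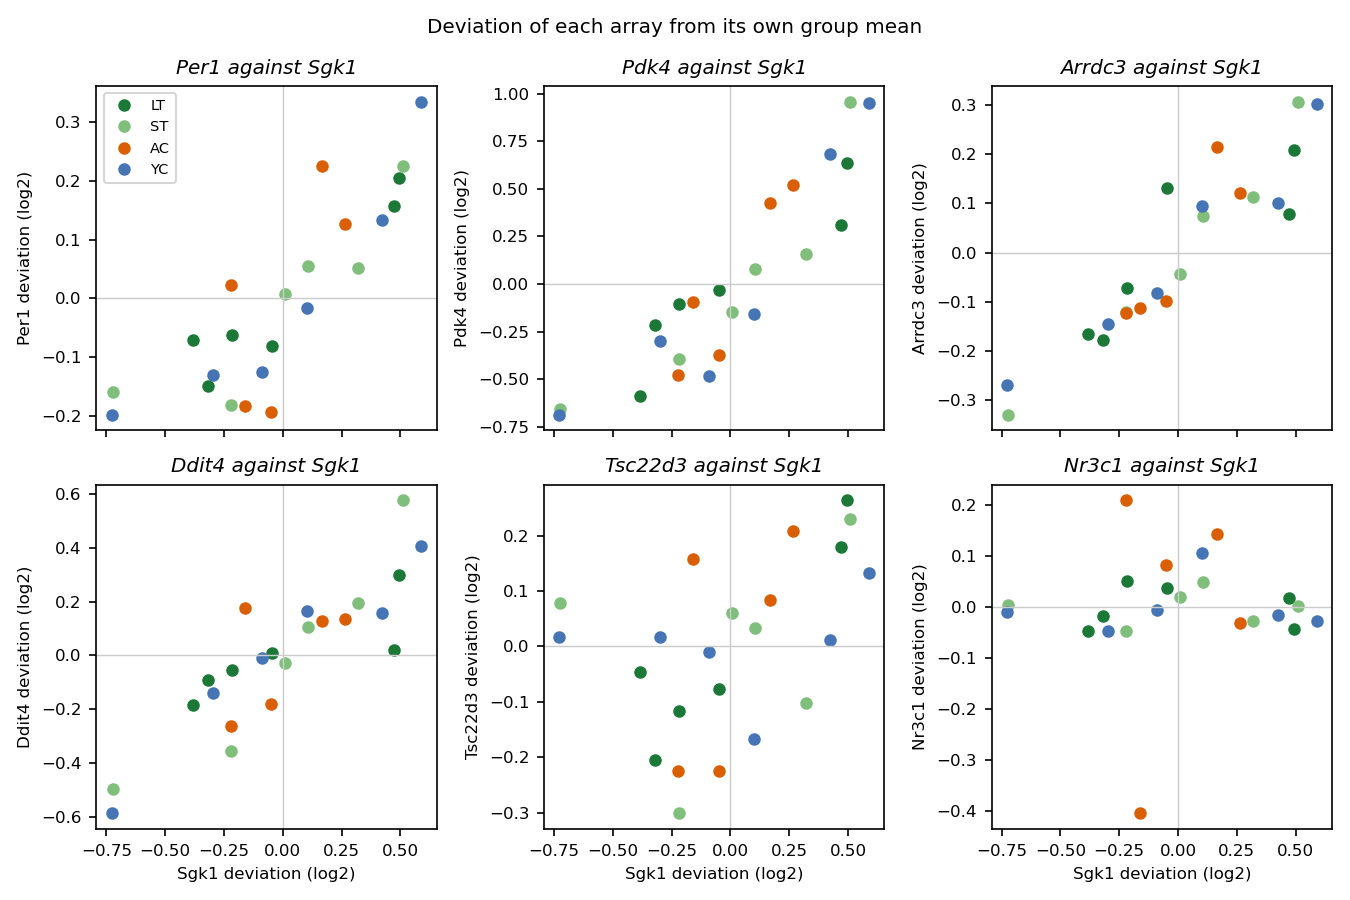
Deviation of each array from its group mean in log2 signal, for Sgk1 (x axis) and 6 other genes (y axis), 23 arrays colored by group. Per1, Pdk4, Arrdc3 and Ddit4 rise with Sgk1 in all 4 groups, Tsc22d3 does so with more scatter (r = 0.45), and Nr3c1 does not (r = 0.048).

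Per1 gave an overlapping set. In the same model with Per1 as the covariate, 11 of 13338 probe sets followed it (0.0825%), all with positive slopes. Sgk1 was among them with a slope of 1.99 (standard error 0.27, adjusted p = 0.0012). Arrdc3, Pdk4, Lrig3, Errfi1 and Dusp1 were called in both fits, which is 50% of those that followed Sgk1 and 45.5% of those that followed Per1, and the fits use the same arrays. Sgk1 and Per1 also correlate with each other within groups, so this fit and its overlap are not separate support for the Sgk1 fit. Arrdc2, an arrestin-domain gene on the list of glucocorticoid-induced genes, followed Per1 (slope 0.63, adjusted p = 0.0077) and was not called with Sgk1 (adjusted p = 0.78). Also called with Per1 were Junb and Nr4a1, both immediate early transcription factor genes (adjusted p = 0.027 and 0.031), Tube1, encoding epsilon-tubulin (0.014), and Fam43a (0.015). Of the 23 fits that left out 1 array, the Junb call was lost in 7, that of Nr4a1 in 9 and that of Dusp1 with Per1 in 8, and Tube1 and Fam43a were each lost in 1, that without YC replicate 2.

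No clock gene was called with Per1. Of 15 tested circadian clock genes other than Per1, limma called 0 with Per1 as the covariate, and their median slope was 0.15 against 0.0012 for all tested probe sets. Without YC replicate 2, the array with the highest Per1 signal, 6 probe sets followed Per1, and without both that array and ST replicate 3 only Pdk4 and Errfi1 did, while Sgk1 had a slope of 2.03 and an adjusted p of 0.054.

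The list of glucocorticoid-induced genes was not of one kind in this respect. Deviations of Fkbp5, the receptor co-chaperone gene often used as a readout of glucocorticoid action, correlated with those of Sgk1 at r = 0.0060 and with those of Per1 at -0.030, and with those of Zbtb16 at 0.65. Hif3a, encoding a hypoxia-inducible factor subunit, and Mertk, a receptor kinase gene of astrocytes and microglia, correlated at r = 0.78 and 0.59 with Zbtb16 and at 0.00076 and -0.048 with Sgk1. Hif3a ranked 1 of 13338 probe sets in r of log2 signal with Zbtb16 over the 23 arrays, so its value is a maximum. The 27 genes of the list had a median slope of 0.083 on Zbtb16, against 0.0038 for all tested probe sets. Fkbp5 signal was 661 to 827 in LT, 698 to 756 in ST, 621, 703, 918, 731 and 827 on the AC arrays and 695 to 806 in YC, with its maximum on AC replicate 3, where Zbtb16 and Hif3a (167) were also at their maximum. Without that array, r with Zbtb16 was 0.45 for Fkbp5, 0.60 for Hif3a and 0.56 for Mertk. With Zbtb16, Tsc22d3 or Hsd11b1 as the covariate, limma called 0% of probe sets each, with 5.70%, 6.70% and 5.71% at an unadjusted p under 0.05, so none of these relations is called.

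**Figure D4:**
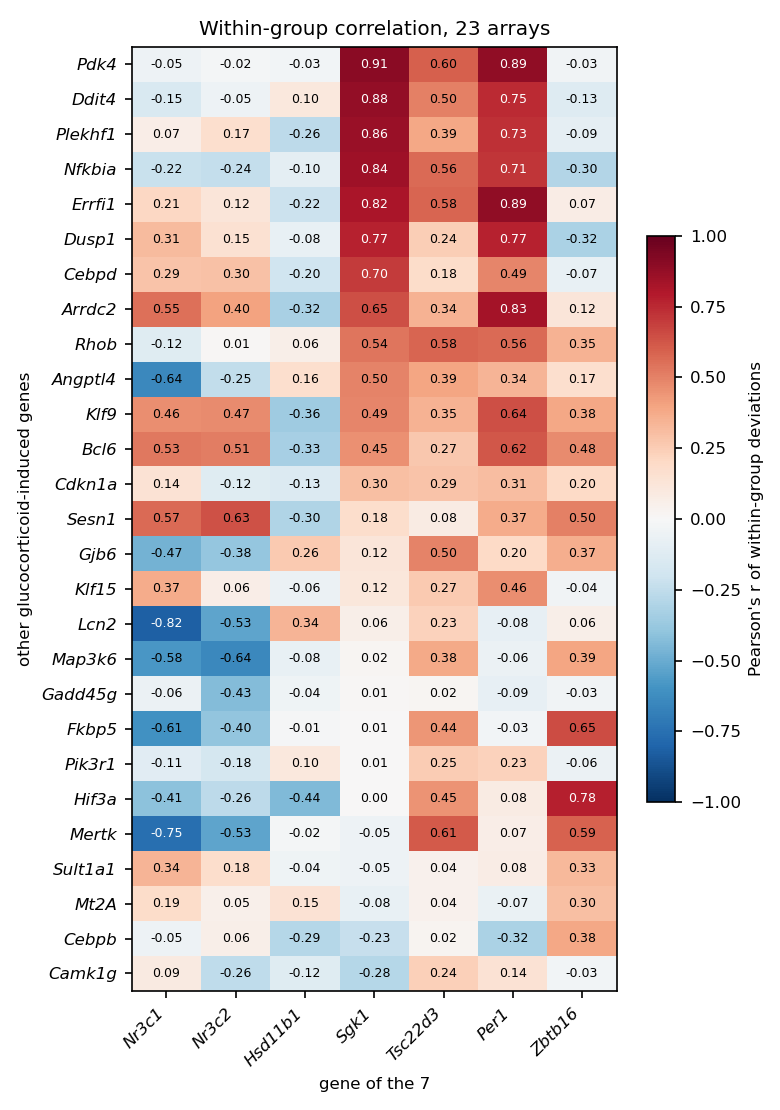
Pearson's r between within-group deviations in log2 signal of 27 other glucocorticoid-induced genes (rows, ordered by r with Sgk1) and the 7 genes (columns), 23 arrays. The top rows are red for Sgk1 and Per1 alike, up to 0.91 for Pdk4 with Sgk1, whereas Fkbp5, Hif3a and Mertk are near 0 for Sgk1 and red for Zbtb16.

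The receptors correlated with each other and with genes of hippocampal subfields, in part through 1 array. Deviations of Nr3c1 and Nr3c2 correlated at r = 0.70 (rho = 0.45), but by group r was 0.95 in AC and only 0.23 in LT, 0.23 in ST and 0.14 in YC. In the covariate model Nr3c2 followed Nr3c1 with a slope of 0.76 and an adjusted p of 0.0071. In that fit 12.7% of all probe sets followed Nr3c1, and with Nr3c2 as the covariate 6.13% did. Without AC replicate 5, 0 probe sets followed Nr3c1 by limma, the slope of Nr3c2 on Nr3c1 was 0.78 and its adjusted p was 0.62. The slope of Nr3c1 on Nr3c2 was 0.64 with all arrays and 0.24 without that array (limma, adjusted p = 0.40). Over the 21 arrays left when AC replicates 1 and 5 were both left out, r was 0.24.

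On AC replicate 5, Nr3c1 signal was 708 and Nr3c2 signal 1456, Prox1, the dentate granule cell marker, was 333 against 632 to 950 on the other 22 arrays, and the summed signal of 10 microglial genes was 7591 against 3283 to 4890 on the others. The summed signal of 5 CA1 genes was 2838 there, against 4433 to 5211 on the others. Within-group deviations of Nr3c1 correlated at r = 0.89 with the CA1 score and those of Nr3c2 at 0.80 with the dentate score, over 23 arrays, and over the 22 arrays without AC replicate 5 these values were 0.44 and 0.67. For Nr3c1 with the dentate score, r was 0.71 with that array and -0.040 without it, while for Nr3c2 with the CA1 score it was 0.75 and 0.65. How much of the receptor signal follows the share of each subfield in the dissected tissue was not tested. Of the 27 other glucocorticoid-induced genes, 5 followed Nr3c1 with negative slopes (Lcn2, Mertk, Angptl4, Fkbp5 and Map3k6), beside 12.7% of all probe sets in either direction. Again 0 of these genes did without AC replicate 5.

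**Figure D5:**
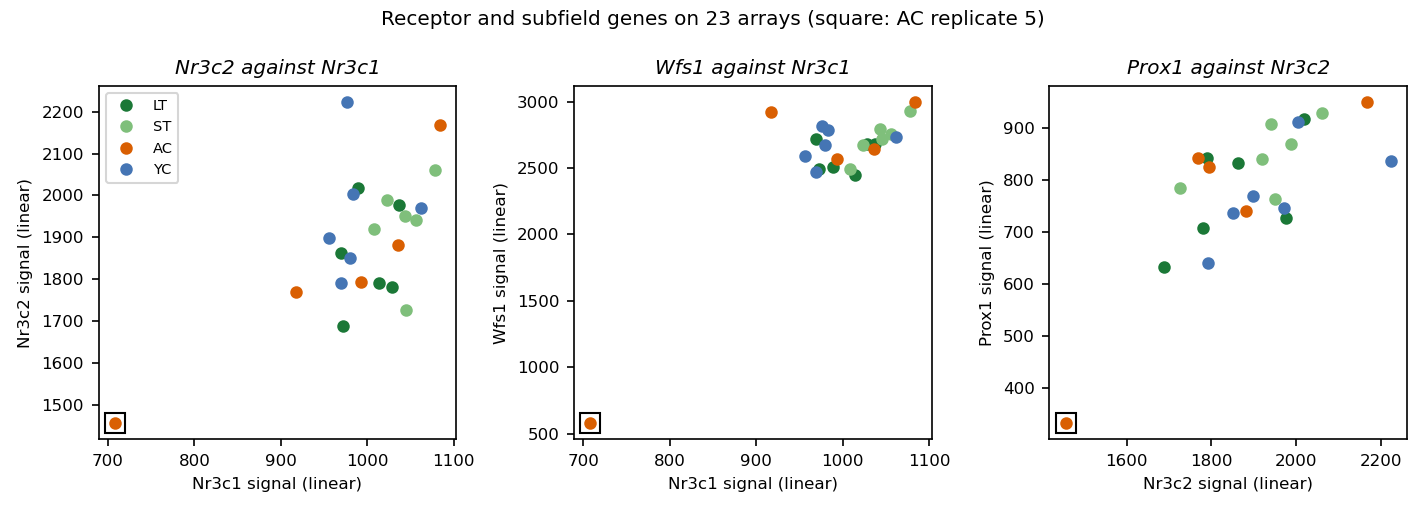
Signal (linear scale) of Nr3c2 against Nr3c1, of the CA1 marker Wfs1 against Nr3c1 and of the dentate marker Prox1 against Nr3c2, on 23 arrays colored by group. AC replicate 5, marked by a square, is lowest on both axes of each panel.

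Ranking all tested probe sets by r of log2 signal over the 23 arrays gave the genes most like each of the 7. Rph3a (r = 0.91) and Rasgrp1 (0.91) were most like Nr3c1, and Trpc5 (0.89) and Ghsr (0.88) most like Nr3c2. Smarce1 (0.71) and Cd24 (0.68) came first for Hsd11b1, Pdk4 (0.90) and Arrdc3 (0.87) for Sgk1, Cyp3a62 (0.76) and Cdc37l1 (0.75) for Tsc22d3, Errfi1 (0.89) and Junb (0.81) for Per1, and Hif3a (0.76) and Plxna2 (0.75) for Zbtb16. These are the maxima over 13338 probe sets each. Without AC replicate 5, r with Nr3c1 was 0.62 for Rph3a (rank 58) and 0.55 for Rasgrp1 (rank 172), and r with Nr3c2 was 0.82 for both Trpc5 and Ghsr (ranks 7 and 6). Without AC replicate 3, Hif3a was at rank 40 for Zbtb16 (r = 0.59) and Plxna2 at rank 3 (r = 0.71).

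Other genes of the pathway were read from 9 lists. In the comparisons of LT or ST with AC, 0 genes were called in every list, beside 0.075% and 0% of all probe sets. For AC against YC, 2 of 27 other glucocorticoid-induced genes were higher in AC and 1 was lower, against 9.75% of all probe sets called. The list's median log2 difference was -0.022 against -0.0062 for all tested probe sets. Mertk rose by 0.30 log2 units (583 ± 86.0 in AC and 470 ± 30.5 in YC, adjusted p = 0.014) and by 0.23 without AC replicate 5 (adjusted p = 0.026). Of 10 microglial markers, 8 were also called for AC against YC, with a summed signal of 4053 to 7591 in AC and 3283 to 3419 in YC, and their part in the Mertk difference was not tested. Mt2A, a metallothionein gene, rose by 0.23 (adjusted p = 0.024), and Camk1g, a calcium/calmodulin-dependent kinase gene, fell by 0.35 (386 ± 66.8 and 492 ± 73.7, adjusted p = 0.041). Without the choroid plexus-high arrays, Mt2A differed by 0.14 and Camk1g by -0.20, and neither was called (adjusted p = 0.17 and 0.33).

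Among 11 genes of corticosteroid synthesis, metabolism and transport, Abcb1a, which encodes an efflux pump of the blood-brain barrier that carries corticosteroids, was the firmest result. Its signal was 486 to 557 in LT, 498 to 584 in ST, 535, 566, 639, 638 and 666 in AC and 422 to 485 in YC. All arrays of aged rats were above all YC arrays, and AC exceeded YC by 0.42 log2 units (standard error 0.057, adjusted p = 0.00029). LT exceeded YC by 0.23 (adjusted p = 0.043) and ST exceeded YC by 0.26 (adjusted p = 0.0098), whereas LT and ST were not called against AC (-0.19, adjusted p = 0.17 and -0.16, adjusted p = 0.39). Abcb1a is also on the list of endothelial and pericyte markers, of which 6 of 11 were called for AC against YC and whose summed signal was 3776 to 4570 in AC and 3407 to 3631 in YC, and the part of vessel content in the Abcb1a difference was not tested. H6pd, which supplies the cofactor of the Hsd11b1 enzyme, was higher in AC than in YC by 0.22 log2 units (158 ± 11.2 in AC and 135 ± 9.69 in YC, adjusted p = 0.021). Cyp11a1, the first enzyme of steroid synthesis, was lower in AC by 0.18 at a signal near the filter (52.4 ± 3.65 and 59.2 ± 3.76, adjusted p = 0.041). Of the 11 genes, 2 were thus higher in AC than in YC and 1 lower, beside 9.75% of all probe sets called.

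Of 8 tested stress-axis peptide and receptor genes, 2 were called lower in AC than in YC, beside 9.75% of all probe sets called in either direction. Pomc, the precursor of corticotropin, was lower by 0.24 log2 units (111 ± 6.53 in AC and 131 ± 5.09 in YC, adjusted p = 0.016). Oxtr, the oxytocin receptor gene, was lower by 0.25 (92.6 ± 10.1 and 110 ± 6.18, adjusted p = 0.025). Of 15 clock genes, 2 were lower in AC than in YC, again beside 9.75% of all probe sets. These were Cry1, a clock repressor (224 ± 7.97 in AC and 248 ± 13.3 in YC, log2 difference -0.15, adjusted p = 0.036), and Per2, its partner (445 ± 13.8 and 495 ± 18.6, log2 difference -0.16, adjusted p = 0.045). With the choroid plexus-high arrays left out, none of these 4, H6pd and Cyp11a1 was called, on fewer arrays, at differences of -0.26 for Pomc, -0.21 for Oxtr, -0.16 for Cry1, -0.15 for Per2, 0.25 for H6pd and -0.10 for Cyp11a1 (adjusted p = 0.057, 0.12, 0.085, 0.14, 0.0501 and 0.28). Of 16 receptor chaperone genes, 1 was called for AC against YC, beside the same 9.75%. This was Cdc37, a cochaperone of Hsp90 and its client kinases, higher in AC by 0.15 (656 ± 35.6 in AC and 590 ± 26.2 in YC, adjusted p = 0.028). Fkbp5, also on this list as an immunophilin of the receptor complex, differed by -0.035 (adjusted p = 0.80).

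No gene was called in the lists of 13 receptor coregulators, 10 SGK kinases and partners, 3 other TSC22 genes or 6 other steroid receptors. Over all probe sets, 9.75% were called for AC against YC. Nearest by the F test were Ncoa2, Ep300 and Med1 among the coregulators (AC against YC: 0.10, 0.084 and -0.099 log2 units, adjusted p = 0.060, 0.075 and 0.050, the last just above the threshold), Sgk2 among the kinases (-0.25, adjusted p = 0.051), Mapkap1 (0.079, adjusted p = 0.14) and Ndrg1 (0.073, adjusted p = 0.56). The other TSC22 genes differed by 0.045 (Tsc22d2), -0.050 (Tsc22d4) and -0.027 (Tsc22d1), each with an adjusted p of 0.40 or more, and Esr2, Esrrg and Esrrb by -0.17, 0.14 and -0.032 (adjusted p = 0.18 or more).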

How the data were processed

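From Affymetrix Rat Gene 1.0 ST arrays the authors deposited 1 intensity for each probe set and array, computed by Robust Multiarray Average (RMA), unlogged and in whole numbers. Blanks (758) were left missing. The submitters' notes also name Partek (version not given in the sources used here). Samples were grouped as LT, ST, AC and YC from the labels. Log2 signals were fitted with limma 3.58.1 in R 4.3.3 with 1 mean per group and 7 comparisons, with Benjamini-Hochberg adjustment over 13339 probe sets and calls at an adjusted p under 0.05. The model with a gene as covariate was the same with that gene's log2 signal added. Both fits were also run on simulated data. The simulated noise was independent between probe sets, so that run cannot show how the fits behave when an array shifts many probe sets together. Replicates are separate rats. Of several probe sets for a gene outside the 7, the one with the highest mean signal was used. Named genes are the 7, list genes called in any comparison (otherwise the 3 with the smallest F-test p), the 2 probe sets most like each of the 7, and those called in the covariate fits, which were added later. Fits without the choroid plexus-high arrays, and spreads and correlations without AC replicate 3 or 5, were added after seeing the data. The 7 genes and the lists were chosen with earlier results of these data known. The number of arrays limits the precision; arrays have no read depth. Marker lists for choroid plexus, meninges, vessels, glia, neurons and hippocampal subfields were summed per array.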

Additional observations from a re-analysis of the deposited data

Results flagged for a closer look

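In 28 groups (7 genes in each of LT, ST, AC and YC), 3 had a highest array farther from its neighbor than Dixon's critical value at the 95% level allows, and chance alone gives about 1 in 20 groups. Nr3c1 signal was 1062 on YC replicate 6, with 956 to 983 on the other YC arrays. Hsd11b1 signal was 684 on AC replicate 5, with 599 to 622 on the other AC arrays, and this array had the lowest signals of both receptors. Zbtb16 signal was 894 on AC replicate 3, with 465 to 584 on the other AC arrays.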

How the results depend on the processing

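None of the 7 genes was called in any comparison under 38 alternatives, 23 of which left out 1 array. Calls for AC against YC (1300) numbered 796 to 1868 with single arrays left out (796, 820 and 853 without AC replicate 3, AC replicate 4 and YC replicate 2), 2355 over all probe sets, 385 with only the groups compared and 398 without the choroid plexus-high arrays. For ST against AC (0), they numbered 0 to 65 with single arrays left out (65, 4 and 1 without AC replicate 1, AC replicate 2 and ST replicate 2). For LT against AC (10), they numbered 2 to 104 (2 without LT replicate 5, 104 without AC replicate 1), 4 by analysis of variance, 5 without a filter, 23 at a minimum of 100, 118 over all probe sets, 28 with equal medians, 6 after quantile normalization, 5 with a variance trend, 3 with only the groups compared, 3 without the choroid plexus-high arrays and 44 with their score as a covariate. Probe sets that followed Nr3c1 (1698) numbered 0 to 1850 with single arrays left out (0 without AC replicate 5), 0 without the 2 farthest arrays and 834 with RNA integrity as a covariate. For Nr3c2 (818) they numbered 111 to 949 (348 and 111 without AC replicates 1 and 5), 0 without the 2 farthest and 1228 with the choroid plexus covariate. For Sgk1 (10) they numbered 8 to 11, and 5 without the 2 farthest, when glucocorticoid-induced genes among them (6; 5 to 6 with single arrays left out) numbered 2. For Per1 (11) they numbered 6 to 15, 5 without the choroid plexus-high arrays, 17 with equal medians and 2 without the 2 farthest, when glucocorticoid-induced genes among them (4; 3 to 5 with single arrays left out) numbered 2. Hsd11b1 (0) had 1 without a filter, Tsc22d3 (0) had 0 to 5 with single arrays left out (5 without AC replicate 5) and 1 with equal medians, and Zbtb16 (0) had 0 to 1 (1 without AC replicate 4) and 1 after quantile normalization. Replicate numbers did not pair the samples (lowest correlation of deviations -0.38): with a replicate block, 3 probe sets were called for LT against AC, 1064, 0, 6 and 3 followed Nr3c1, Nr3c2, Sgk1 and Per1, and Per1 on Sgk1 had an adjusted p of 0.088. Of the list genes called for AC against YC, Abcb1a, Mertk, Pomc and H6pd survived each single-array omission. Mt2A was lost without YC replicate 2, AC replicate 3 or 4, Oxtr without YC replicate 2 or 4 or AC replicate 3, and Cdc37, Cry1, Camk1g, Cyp11a1 and Per2 in 5 to 10 such fits. The causes were not tested, and 5 or 6 arrays per group limit what could be detected.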

Other observations

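Within-group deviations of Tsc22d3 correlated at r = -0.72 with the score of 7 CA2 and CA3 genes and those of Zbtb16 at -0.53, over 23 arrays, and at -0.72 and -0.54 over the 22 arrays without AC replicate 5. For Sgk1 and Per1 the values over 23 arrays were -0.25 and -0.34. With the oligodendrocyte score, Sgk1 deviations correlated at 0.34 and those of Per1 at 0.54, and at 0.43 and 0.55 without AC replicate 5. For Tsc22d3 with this score, r was 0.097 over 23 arrays and 0.50 without that array. Nr3c1 deviations correlated at 0.78 with the oligodendrocyte score and at -0.74 with the microglial score, and at 0.26 and 0.059 without AC replicate 5. These scores share each array's dissection and scaling with the genes, and the values are given without a test.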
